A study of Mus musculus with 3 samples.

Results

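Of the gene promoters that carried H3K4me3 in the embryonic mouse cortex and held a CCAAT box, most had no NF-Y-ChIP summit nearby, and these promoters are described here. A gene was included when it met 4 conditions. It was annotated as protein-coding in GENCODE M21, an H3K4me3-ChIP peak lay within 1000 bp of its 5′ end, CCAAT or its reverse complement ATTGG lay wholly within the 150 bp upstream, and no NF-Y-ChIP summit lay within 1000 bp. Genes with an opposite-strand protein-coding 5′ end within 1000 bp were left out, because a summit between such neighbours cannot be assigned to either. The promoters were thus selected on measured values, the presence of an H3K4me3-ChIP peak and the lack of an NF-Y-ChIP summit, and neither is a finding about them. Of 21938 protein-coding genes on chromosomes 1 to 19, X and Y, 12969 were marked and 10700 of these had no opposite-strand neighbour. CCAAT boxes were present in 2894 of the 10700, and 2526 of these had no NF-Y-ChIP summit. The other 368 are called NF-Y-bound below and serve as the comparison.

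The data were 3 libraries of cerebral cortices from mouse embryos at E13.5, 1 of input chromatin, 1 of NF-Y-ChIP with an antibody to NF-YC and 1 of H3K4me3-ChIP. No genetic change or treatment is given for these embryos. Since each antibody had 1 library, spread between replicates could not be measured and no test was run. The read depth is unknown, and the 95% intervals given below (Wilson intervals for shares, order statistics for medians) cover the sampling of promoters only. Intervals of differences between medians are not 95% intervals. They subtract opposite limits of the groups' intervals and are wider. Promoters of 1 library are not replicates, and 42 of the 2526 shared a box with another CCAAT promoter. A promoter without a summit is one at which no peak passed the authors' threshold. In bulk tissue, occupancy in few cells cannot be told apart from weak occupancy in many. The tissue label was checked on H3K4me3-ChIP: 10 of 10 cortical genes had a peak at the 5′ end, including Emx1 and Tbr1, against 0 of 3 microglial genes, 1 of 3 endothelial, 3 of 4 mesenchymal, 1 of 3 erythroid genes and 0 of 2 genes of liver and thyroid. Peaks of any strength were counted, and their fold enrichments overlapped. They ran from 4.61 to 60.7 at the cortical genes and from 4.43 to 9.92 at the mesenchymal ones. The endothelial peak, at Cldn5, had a fold of 9.38 and the erythroid one, at Klf1, 30.1.

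NF-Y is a trimer of NF-YA, NF-YB and NF-YC. NF-YB and NF-YC pair through histone folds and hold the DNA much as H2A and H2B do, and NF-YA reads the CCAAT pentamer itself. The box typically lies a short distance upstream of the start site, and purines before it and a C or G followed by a purine after it belong to the known extended consensus. NF-Y is best known for promoters of cell cycle genes, of chaperones of the endoplasmic reticulum (ER) and of lipid synthesis genes. H3K4me3 is a histone mark of active or poised promoters.

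Examples of promoters without a summit are shown by the 150 bases before the 5′ end (GRCm38, read 5′ to 3′ on the strand of the gene, with the boxes in capitals). They were chosen to differ. The first pair had the most boxes, the second pair the strongest H3K4me3, and the third pair had at least 2 boxes, strong H3K4me3 and the extended consensus.
Zfp691, chr4:119174196-119174345, minus strand: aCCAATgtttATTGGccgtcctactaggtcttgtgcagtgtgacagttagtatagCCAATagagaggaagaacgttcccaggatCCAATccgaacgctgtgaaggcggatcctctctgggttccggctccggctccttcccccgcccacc
Gm21992, chr19:4811613-4811762, minus strand: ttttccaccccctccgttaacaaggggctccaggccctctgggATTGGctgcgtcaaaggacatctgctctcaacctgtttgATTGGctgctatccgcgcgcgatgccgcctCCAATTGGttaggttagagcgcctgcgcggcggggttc
Pitpnb, chr5:111330613-111330762, plus strand: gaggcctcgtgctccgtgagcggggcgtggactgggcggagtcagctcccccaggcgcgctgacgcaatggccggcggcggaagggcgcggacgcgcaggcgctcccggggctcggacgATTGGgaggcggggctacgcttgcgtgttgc
Suz12, chr11:79992956-79993105, plus strand: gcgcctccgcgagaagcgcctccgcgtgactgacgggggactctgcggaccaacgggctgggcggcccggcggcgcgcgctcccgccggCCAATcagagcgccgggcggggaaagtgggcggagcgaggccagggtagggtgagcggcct
Exoc1, chr5:76529161-76529310, plus strand: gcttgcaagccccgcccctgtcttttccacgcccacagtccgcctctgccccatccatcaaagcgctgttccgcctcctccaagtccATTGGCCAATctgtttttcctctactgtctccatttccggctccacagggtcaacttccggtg
Ptma, chr1:86526576-86526725, plus strand: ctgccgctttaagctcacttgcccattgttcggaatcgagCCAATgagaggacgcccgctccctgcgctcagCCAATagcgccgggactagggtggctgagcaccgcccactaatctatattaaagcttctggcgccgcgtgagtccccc

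The next sequence was chosen after its values were seen, because it holds evenly spaced boxes without a summit. It belongs to Ccnb2, which encodes cyclin B2 of the mitotic kinase.
Ccnb2, chr9:70421548-70421697, minus strand: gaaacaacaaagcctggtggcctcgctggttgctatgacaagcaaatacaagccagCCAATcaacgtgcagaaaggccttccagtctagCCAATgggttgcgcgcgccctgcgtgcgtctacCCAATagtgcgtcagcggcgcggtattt

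For comparison, these are the NF-Y-bound promoters with the highest NF-Y-ChIP fold enrichment, Hnrnpab and Fam204a, and that of Top2a, the topoisomerase of dividing cells, also chosen after its values were seen.
Hnrnpab, chr11:51606848-51606997, minus strand: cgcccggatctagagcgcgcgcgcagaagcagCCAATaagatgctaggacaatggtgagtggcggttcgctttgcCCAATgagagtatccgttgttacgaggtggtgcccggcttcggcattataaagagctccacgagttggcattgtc
Fam204a, chr19:60226702-60226851, minus strand: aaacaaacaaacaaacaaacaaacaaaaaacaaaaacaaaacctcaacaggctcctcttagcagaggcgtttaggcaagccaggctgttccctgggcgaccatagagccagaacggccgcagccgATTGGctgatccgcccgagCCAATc
Top2a, chr11:99024190-99024339, minus strand: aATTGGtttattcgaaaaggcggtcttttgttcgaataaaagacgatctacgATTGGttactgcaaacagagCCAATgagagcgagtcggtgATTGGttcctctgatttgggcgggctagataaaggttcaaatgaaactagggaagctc

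Zfp691, a zinc finger gene, had 4 boxes at −149, −140, −95 and −66 bp, none in the extended consensus, and an H3K4me3 fold enrichment of 53.2. Positions are those of the first base of the box on the gene strand, with −1 just before the 5′ end. Gm21992 and Rbm14, a coactivator gene, have 5′ ends close together on the same strand and share 4 boxes, of which the last pair overlap each other. H3K4me3-ChIP gave 1 common peak (fold 44.7), and the nearest NF-Y-ChIP summit was 17624 bp from the 5′ end of Gm21992. The other members with 4 boxes and the strongest H3K4me3 were Atp5g1, a subunit of the mitochondrial ATP synthase (fold 44.6), and Mospd3 (37.7). The strongest H3K4me3 among all 2526 was at Pitpnb, a phosphatidylinositol transfer protein gene, and at Suz12, a subunit of Polycomb complex PRC2, both at a fold of 85.2. Rad21, a cohesin subunit (84.9), Ccdc186 (84.7) and Rpn1, a subunit of the ER oligosaccharyltransferase (84.5), followed. Each of these last 5 promoters had 1 box.

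Among all marked promoters without an opposite-strand neighbour, 4.35% (465 of 10700) had an NF-Y-ChIP summit within 1000 bp. The share was 12.7% (368 of 2894, interval 11.6 to 13.98%) for those with a CCAAT box and 1.24% (97 of 7806) for those without. The 2526 promoters without a summit were therefore 87.3% of the marked CCAAT promoters. A box alone was about as frequent in unmarked genes, at 26.6% (2387 of 8969, interval 25.7 to 27.5%), as in these marked ones, at 27.0% (2894 of 10700, interval 26.2 to 27.9%). Unlike the marked ones, the unmarked genes were not filtered for opposite-strand neighbours.

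Promoters without a summit mostly had a single box. Of the 2526, 1865 had 1 box, 550 had 2, 101 had 3 and 10 had 4. At least 2 boxes were present in 26.2% (interval 24.5 to 27.9%), against 62.5% (57.4 to 67.3%) of the 368 NF-Y-bound promoters, a difference of −36.3 percentage points (interval −41.4 to −31.0). Read the other way, a summit was present at 6.89% (138 of 2003) of promoters with 1 box, 21.7% (152 of 702) of those with 2, 39.2% (65 of 166) with 3 and 56.5% (13 of 23, interval 36.8 to 74.4%) with 4 or more. The intervals for 1, 2 and 3 boxes did not overlap, while that for 4 or more overlapped that for 3. Even with 3 boxes, 101 of 166 promoters had no summit.

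**Figure D1:**
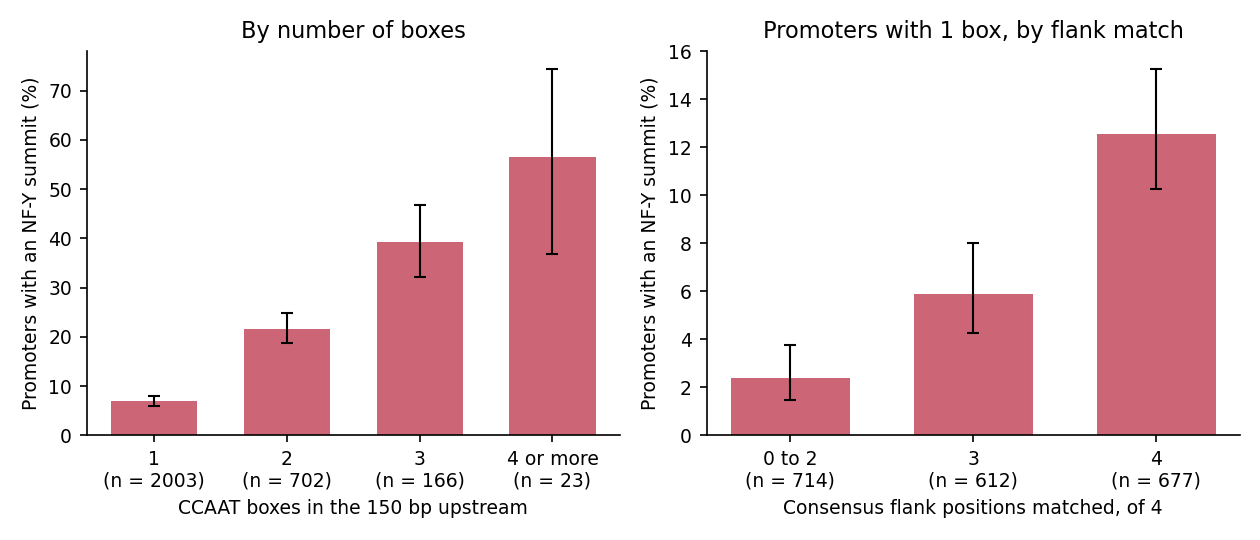
Share of marked CCAAT promoters with an NF-Y-ChIP summit within 1000 bp, in percent on the vertical axes, by the number of boxes (left) and, for promoters with 1 box, by how many of 4 flank positions matched the extended consensus (right). Bars are shares and lines are Wilson 95% intervals; the share went from 6.89% with 1 box to 56.5% with 4 or more, and from 2.38% with 0 to 2 matched positions to 12.6% with 4.

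The bases beside the box also differed. The extended consensus (purine, purine, CCAAT, C or G, purine) was present in at least 1 box of 39.1% of the promoters without a summit (987 of 2526, interval 37.2 to 41.0%) and of 71.7% of NF-Y-bound promoters (264 of 368, interval 66.9 to 76.1%). Promoters with more boxes have more chances to hold it, so the same was asked of promoters with 1 box, where the shares were 31.7% (592 of 1865) and 61.6% (85 of 138), a difference of −29.9 percentage points (interval −37.8 to −21.3). A single box had a summit nearby in 2.38% of promoters that matched 0 to 2 of the 4 consensus positions (17 of 714, interval 1.49 to 3.78%), 5.88% that matched 3 (36 of 612) and 12.6% that matched all 4 (85 of 677, interval 10.3 to 15.3%). By number and flank together, the share with 1 box outside the consensus was 3.997% (53 of 1326), and with 2 boxes both in the consensus it was 37.5% (48 of 128, interval 29.6 to 46.1%). That still left 80 promoters with 2 consensus boxes and no summit.

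Base by base, the single boxes of promoters without a summit were more varied. Bound boxes, here and below, are the single boxes of promoters with a summit within 1000 bp of the 5′ end. The summit need not lie at the box. Counting outward from the core, with −1 just before CCAAT and +1 just after it, T stood at −2 in 13.99% of them and in 0.725% of the NF-Y-bound boxes (1 of 138). T stood at +2 in 9.76% and 0.725%. Outside the extended consensus, C at −6 was present in 32.3% without a summit and 59.4% of bound boxes, and G at −7 in 29.5% and 50.7%. G at +3 was present in 39.5% and 60.9%. C at +5 was present in 16.997% without a summit and in 2.90% of bound boxes (4 of 138). For each of these 6 bases, picked after the values were seen, the intervals of the groups were separate.

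These 25-base stretches show single boxes read along the CCAAT strand, with the core in capitals. The first set are the 4 promoters without a summit that had the strongest H3K4me3 among those with 1 box.
Pitpnb, chr5:111330722-111330746, minus strand: gccccgcctcCCAATcgtccgagcc
Suz12, chr11:79993035-79993059, plus strand: ctcccgccggCCAATcagagcgccg
Rad21, chr15:51991879-51991903, minus strand: tgctccgtggCCAATaggtggctgg
Ccdc186, chr19:56822230-56822254, plus strand: cctgaacgagCCAATcagcgcggcg

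The second set are the NF-Y-bound promoters with 1 box and the highest NF-Y-ChIP fold enrichment.
Iars, chr13:49682041-49682065, plus strand: tatgcacggaCCAATcgccacacgt
Stx5a, chr19:8741340-8741364, plus strand: ggcagtctaaCCAATaggagagcgg
Zranb1, chr7:132931108-132931132, minus strand: ggaggcgcagCCAATaggcgaccgc
Cit, chr5:115845204-115845228, minus strand: cgtgcctcaaCCAATcagcgctcgc

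The boxes of Suz12 and Ccdc186 matched all 4 consensus positions and had no summit, that of Rad21 matched 3 and that of Pitpnb 2. Among the bound ones, Iars, the isoleucyl-tRNA synthetase gene, and Cit, the citron kinase gene of cytokinesis, matched 4, and Stx5a and Zranb1 matched 3. Their NF-Y-ChIP fold enrichments were 39.1 at Iars, 21.5 at Stx5a, 19.3 at Zranb1 and 16.7 at Cit. Of the 8 single-box promoters with the strongest H3K4me3 and no summit, 4 matched all 4 positions, and of the 8 bound ones with the highest NF-Y-ChIP fold, 6 did.

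**Figure D2:**
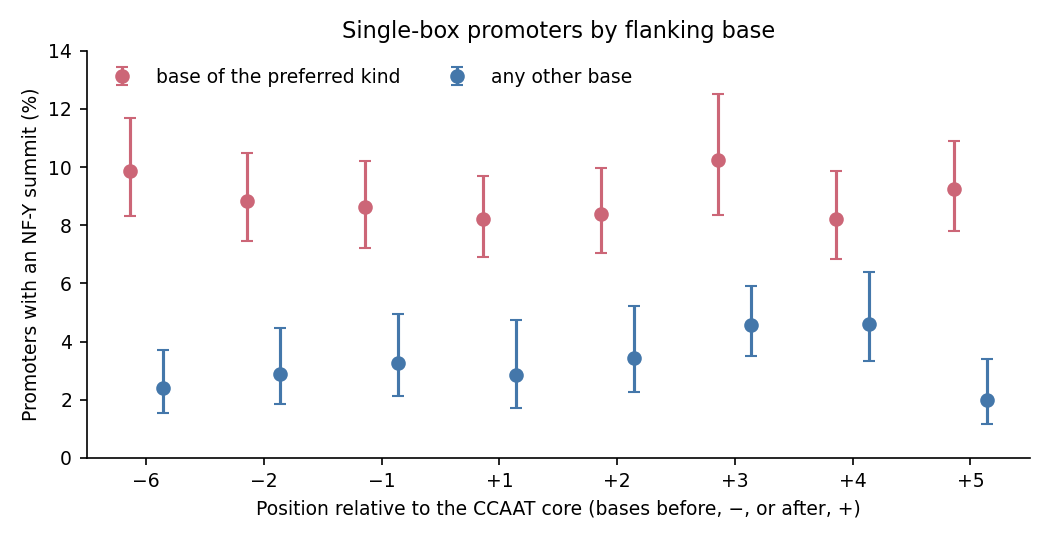
Share of promoters with 1 CCAAT box that had an NF-Y-ChIP summit, in percent, by the base at 8 positions around the core. Red points have a base of the kind more frequent in bound promoters (C or G at −6 and +1, a purine at −2, −1, +2 and +5, G at +3, A or C at +4), blue points any other base, and lines are Wilson 95% intervals, which are separate at all 8 positions (the kinds outside the extended consensus were set after the values were seen); at +5 the shares were 9.25% and 1.997%.

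Single boxes of promoters without a summit lay slightly farther upstream. Their median position was −71 bp (interval −74 to −69 bp, n = 1865) against −57 bp (−64 to −51 bp, n = 138) in NF-Y-bound promoters. The difference of −14 bp (interval −23 to −5 bp) depended on the choices made. It was −4 bp (−12 to 4 bp) with a window of 100 bp, −28 bp (−40 to −16 bp) with 200 bp and −6 bp (−15 to 6 bp) when the window ran on to 50 bp downstream. It was −9 bp (−20 to 3 bp) without opposite-strand neighbours of any gene type and −12 bp (−27 to 2 bp) with the stronger NF-Y-ChIP peaks. The middle of both distributions overlapped, with quartiles of −105 and −44 bp and of −84.3 and −35 bp. A summit lay within 1000 bp of the 5′ end in 4.85% (13 of 268) of promoters with a single box from −150 to −126 bp. The share was 9.93% (41 of 413) for a single box from −50 to −26 bp, with overlapping intervals (2.86 to 8.12% and 7.40 to 13.2%). The orientation did not distinguish them: CCAAT was on the gene strand in 49.4% of single boxes without a summit and in 49.3% of bound ones, a difference of 0.162 percentage points with an interval of −8.39 to 8.68.

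Boxes outside the 150 bp window were fewer just upstream of the promoters without a summit. The choice by CCAAT box did not use them, but the 1000 bp limit of the summit spans these stretches. A summit at such a box would itself place a promoter among the bound ones, so the comparison is not free of the selection. From −300 to −151 bp, 20.7% of the promoters without a summit (522 of 2526, interval 19.1 to 22.3%) held a further box, against 36.4% (134 of 368, interval 31.7 to 41.4%) of the bound ones. From 0 to 149 bp downstream, the shares were 11.8% and 15.5%, a difference of −3.65 percentage points (interval −7.88 to −0.0633), but over 0 to 499 bp they were 30.7% and 31.8%, a difference of −1.07 points with an interval that includes 0 (−6.31 to 3.83). In the bin from 0 to 49 bp the intervals were separate, at 6.06% (5.19 to 7.06%) without a summit and 10.9% (8.08 to 14.5%) with one. Over the whole stretch from −1000 to −151 bp, which includes the first one, the shares were 69.1% and 74.7%, a difference of −5.65 percentage points (interval −10.2 to −0.643). In bins of 50 bp, the next one, from −350 to −301 bp, still differed, at 6.33% (interval 5.45 to 7.35%) without a summit and 11.1% (8.32 to 14.8%) with one, and in each of the 13 bins from −1000 to −351 bp the intervals of the groups overlapped.

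**Figure D3:**
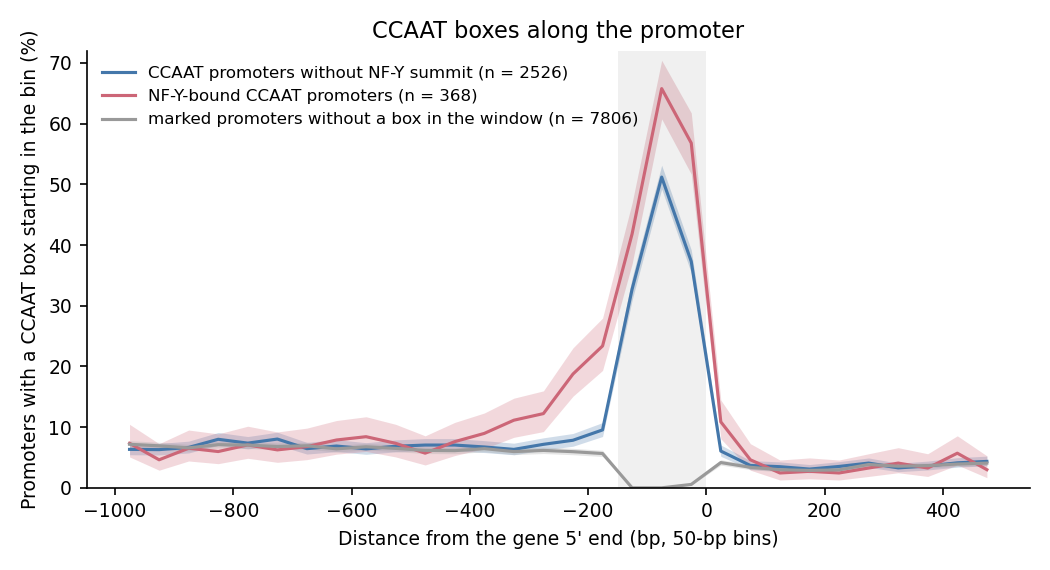
Percent of promoters with a CCAAT box starting in each 50-bp bin from −1000 to 499 bp of the gene 5′ end, for promoters without a summit (blue), NF-Y-bound promoters (red) and marked promoters without a box in the 150 bp window (grey), with Wilson 95% bands. The grey area is the window used to choose the promoters; in the bin from −200 to −151 bp just outside it, 9.54% of the promoters without a summit and 23.4% of the bound ones held a box.

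Where 2 boxes were present, close pairs were mostly without a summit. The median distance between the boxes, first base to first base, was 40 bp both in the 550 promoters without a summit and in the 152 bound ones. With a distance of 3 to 19 bp, 66 of 70 promoters had no summit and 5.71% had one (interval 2.24 to 13.8%), against 23.4% (148 of 632, interval 20.3 to 26.9%) for 20 to 150 bp. The division at 20 bp was made after the values were seen. Pairs 3 bp apart had a summit in 2 of 17 (11.8%, interval 3.29 to 34.3%), which overlaps the interval for 20 to 150 bp. Pairs 4 to 19 bp apart had one in 2 of 53 (3.77%, interval 1.04 to 12.8%). Fam204a, bound at an NF-Y-ChIP fold of 43.7, has its boxes 19 bp apart. The bound share varied little from 20 bp on, between 20.1% at 60 bp or more and 25.6% at 20 to 29 bp. Whether the boxes pointed the same way made little difference, with 21.8% (105 of 482) and 21.4% (47 of 220) bound.

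H3K4me3 was weaker and narrower at promoters without a summit. Their median fold enrichment was 37.9 (interval 36.7 to 38.8, range 3.06 to 85.2) against 46.3 (43.8 to 48.0, range 8.61 to 87.4) at NF-Y-bound promoters. With the stronger 50% of H3K4me3-ChIP peaks alone, the difference in fold was −2.05 (interval −5.00 to 0.332), in place of −8.48 (−11.3 to −4.99). The median peak width was 1300 bp (1274 to 1323 bp) against 1535 bp (1471 to 1599 bp). These values are those of the strongest peak within 1000 bp, and 9.03% of promoters without a summit had at least 2 such peaks, against 20.4% of bound ones (difference −11.4 percentage points, interval −15.9 to −7.38). Among promoters with 1 peak, the median fold was 38.1 (n = 2298) against 46.6 (n = 293), a difference of −8.49 (interval −10.996 to −4.80), and the median width was 1322 against 1614 bp, a difference of −292 bp (−406 to −189 bp). Marked promoters with neither a box nor a summit had a median fold of 37.3 (36.7 to 38.0, n = 7709), and that interval overlapped the one of the CCAAT promoters without a summit. The difference from bound promoters was of the same size with 1 box, 38.0 against 46.4, as with at least 2, 37.7 against 46.2. The H3K4me3-ChIP peak covered the 5′ end in 89.7% of promoters without a summit and 96.5% of bound ones, and a box lay inside the peak in 82.5% (2083 of 2526) and 93.8% (345 of 368). Its summit lay a median of 229 bp downstream of the 5′ end without an NF-Y-ChIP summit and 219 bp with one, with overlapping intervals.

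**Figure D4:**
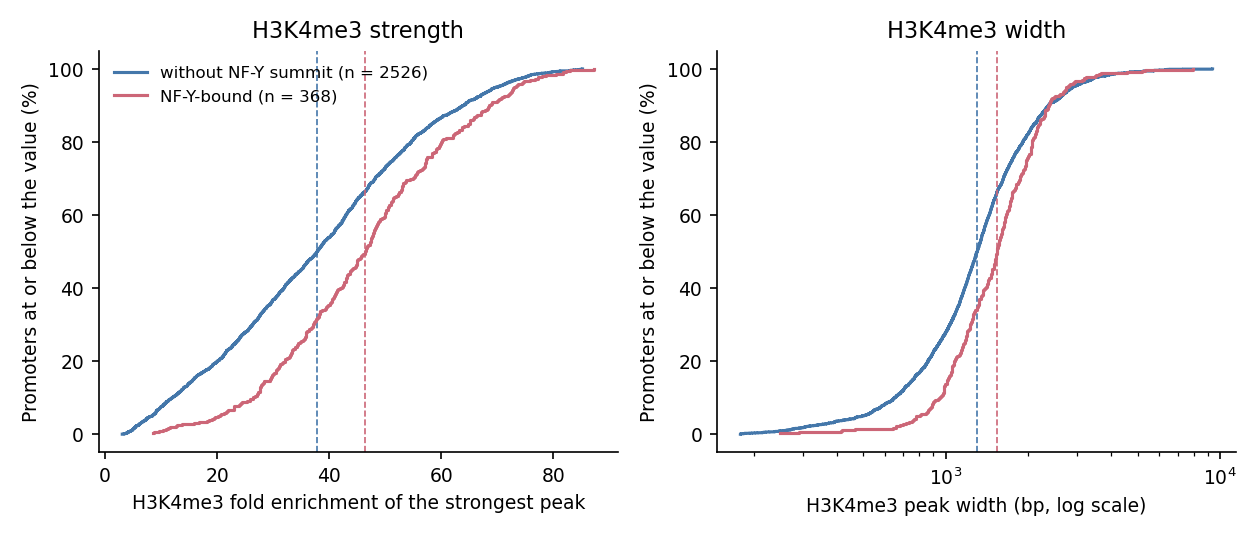
Cumulative share of promoters, in percent, by the fold enrichment (left) and the width in bp on a log scale (right) of the strongest H3K4me3-ChIP peak within 1000 bp, for promoters without an NF-Y-ChIP summit (blue) and NF-Y-bound promoters (red); dashed lines mark the medians, 37.9 and 46.3 for the fold. The curve of the fold for bound promoters lies to the right of the other over most of the range, although the values of both groups range widely and overlap.

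The number of boxes parted the promoters at every level of H3K4me3. The marked CCAAT promoters were divided into 4 equal groups by H3K4me3 fold enrichment. In the lowest group, up to 24.6, 4.56% (33 of 724) had a summit, and in the highest, above 52.2, 17.6% (127 of 722). Within the lowest group, 2.76% of promoters with 1 box and 9.94% of those with at least 2 had a summit. Within the highest group these shares were 9.94% (49 of 493) and 34.1% (78 of 229). The difference by number of boxes thus held inside each group, with separate intervals in all 4, and 595 promoters in the highest group had no summit.

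Base composition moved with the groups too. The 300 bp around the 5′ end had a median GC content of 63.0% (interval 62.7 to 63.7%) without a summit and 65.5% (64.7 to 66.7%) in bound promoters, and the observed to expected CpG ratio was 0.790 and 0.850. Marked promoters with neither a box nor a summit had medians of 65.3% and 0.804. In the lowest of 4 equal groups by GC content, 3.90% of promoters with 1 box and 18.4% of those with at least 2 had a summit, and in the highest 9.88% and 32.0%. Boxes within repeats were rare. At least 1 lay in a repeat in 2.41% of promoters without a summit (61 of 2526) and 1.09% of bound ones (4 of 368), a difference of 1.33 percentage points (interval −0.428 to 2.27), and all of them did in 1.78% (45) and 0.272% (1), a difference of 1.51 points (interval 0.181 to 2.14). The part of GC content and of H3K4me3 in the lack of a summit was not tested.

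Other core motifs were searched on both strands from −150 bp to 50 bp, where they may overlap each other. The ETS core CCGGAAG was present in 11.5% of promoters without a summit (290 of 2526, interval 10.3 to 12.8%) and 7.34% of bound ones (27 of 368, interval 5.09 to 10.5%), against 13.0% of the 10700 marked promoters without an opposite-strand neighbour, called the marked here, and 9.46% of all 21938 protein-coding promoters, neighbours included. The NRF1 core GCGCATGCG was present in 2.14% (54 of 2526) and in 1 of the 368 bound promoters, against 2.95% of the marked and 1.91% of all promoters. Its intervals were separate, at 1.64 to 2.78% and 0.0480 to 1.52%. The GC box GGGCGG, bound by Sp factors, was present in 59.4% without a summit and 66.3% of bound promoters, against 60.5% of the marked and 39.8% of all. The cell cycle homology region core TTTGAA was present in 7.24% and 10.6%, against 6.31% of the marked and 9.50% of all. The E-box CACGTG was present in 7.60% and 10.6%, against 7.90% of the marked and 6.003% of all. For ETS, NRF1, the GC box, TTTGAA and the E-box, the interval of the difference did not include 0. For the TATA box TATAAA (5.03 and 3.53%, marked 4.21%, all 8.41%), the CRE core TGACGT (9.90 and 8.42%, marked 9.65%, all 7.20%), the E2F core TTTNGCGC (2.06 and 2.45%, marked 1.56%, all 1.14%) and the YY1 core AAGATGG (4.67 and 6.79%, marked 4.73%, all 4.52%) it did. A match describes the letters only, and 9 motifs were compared without a correction.

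Some promoters without a summit shared several features that were frequent in bound ones. At least 2 boxes, of which 1 in the extended consensus between −120 and −30 bp, were present in 317 promoters without a summit and 141 bound ones, so 30.8% (interval 26.7 to 35.2%) of promoters of this kind had a summit, against 9.32% (227 of 2436) of the others. When H3K4me3 also had to reach the bound median of 46.3, 91 without a summit and 66 bound ones were left, a bound share of 42.0% (interval 34.6 to 49.9%). By H3K4me3 the 91 were led by Exoc1, a subunit of the exocyst that tethers secretory vesicles (fold 83.6), and Ptma, which encodes the chromatin protein prothymosin α (79.8). They were followed by Yipf4 (79.4), Dcaf7 (77.1) and Zfp958 (76.0). The nearest summit was 2436296 bp away from Exoc1 and 167298 bp from Ptma. In Exoc1 and Zfp958 the pair of boxes lay 5 bp apart, in the range where few promoters had a summit. In Ptma they lay 32 bp apart and in Dcaf7 39 bp, and Yipf4 had 3 boxes at −61, −37 and −11 bp.

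The selection left no summit within 1000 bp, and the distances beyond that limit were like those of marked promoters with neither a box nor a summit. The median distance to the nearest NF-Y-ChIP summit was 782 kb (interval 714 to 853 kb), and 2331 of the 2526 (92.3%) had none within 50000 bp. Among the 7709 marked promoters with neither, the median was 789 kb (interval 749 to 826 kb), and 93.0% (7172) had none within 50000 bp. In the 2526, 10 had one from 1001 to 2000 bp. The nearest outside the limit were Hist1h2bb at 1075 bp, Ypel5 at 1110 bp, Hist1h2ab at 1122 bp, Hist1h1b at 1162 bp and Hist1h3a at 1211 bp, of which 4 are histone genes that lie in dense clusters. The bound promoters closest to the limit from inside were Fbxl20 at 748 bp, Apc at 727 bp, Sp4 at 596 bp, Hdgfl2 at 591 bp and Actr1a at 529 bp. In 290 of the 368 bound promoters the strongest summit was within 50 bp of a box. Another annotated start existed for 2156 of the 2526 genes, and in 5 of them an NF-Y-ChIP summit lay within 1000 bp of that other start.

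The threshold of the NF-Y-ChIP list bears on these promoters, since some bound ones had weak peaks. The fold enrichment of the 368 ran from 2.97 to 53.1 with a median of 6.90 (interval 6.57 to 7.40). At 12 of the 368, the strongest peak did not reach q < 0.05. The highest were Hnrnpab (53.1), Fam204a (43.7), Iars (39.1), Ilf2 (34.2) and Depdc1b (33.7). The lowest were Dnajb5 (2.97), Pnn (3.15), Myo1e (3.24), Rcn3 (3.25) and Coa6 (3.34), which had 1 to 3 boxes each. When only NF-Y-ChIP peaks with q < 0.05 were kept, the bound share was 12.3%, against 12.7%, and 2538 promoters had no summit, against 2526. When only the stronger NF-Y-ChIP peaks, at or above the median fold of the list, were kept, the bound share was 6.91%.

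Cell cycle genes were on both sides. Of 50 listed genes of mitosis and G2/M, 23 were marked CCAAT promoters, and 13 of them had no summit. The bound share was 43.5% (10 of 23, interval 25.6 to 63.2%), above the 12.7% of all marked CCAAT promoters. This list and those below were chosen with earlier results of these data known. The study itself shows NF-Y-ChIP peaks at Ube2c and Aspm, which are among the 10. For any of these lists, a share above the 12.7% is therefore no independent result. The members with the strongest H3K4me3 were Prc1, a spindle midzone protein (60.7), the kinase Plk1 (45.6), the motor Kif11 (42.7), Cdc20, an activator of the anaphase-promoting complex (42.6), the motor Kif23 (41.7) and the kinase Aurkb (40.9). Ccnb1, Ccnb2 and Cdk1, which encode the cyclin B subunits and the kinase of entry into mitosis, were also without a summit; they are named after their values were seen. Ccnb2 had 3 boxes at −94, −61 and −28 bp, 33 bp apart, of which 2 matched the extended consensus, and an H3K4me3 fold of 26.7. Cdk1 had boxes at −54 and −22 bp (39.2), Aurkb at −51 and −21 bp, and Ccnb1 1 box at −15 bp (30.3). At least 2 boxes were present in 4 of the 13 without a summit and in 9 of the 10 bound ones, which include Top2a, Ube2c and Aspm. Ube2c had an NF-Y-ChIP fold of 8.20 and Aspm of 8.64, each with 3 boxes. Mki67 was bound without a box in the window, and Wdr62, with 3 boxes, was left out for its opposite-strand neighbour.

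Of 50 genes of DNA replication and S phase, 15 had a CCAAT box and no summit and 5 were bound (25%, interval 11.2 to 46.9%). The interval includes the 12.7% of all marked CCAAT promoters. Those without a summit included the licensing inhibitor Gmnn (69.6), the cyclin Ccne2 (64.8), E2f3 (61.2), the phosphatase Cdc25a (61.2), E2f7 (61.0) and Gins3 (43.5), with their H3K4me3 folds. E2f3 had 3 boxes at −145, −109 and −81 bp. The bound ones were Mcm5, Rpa2, E2f1, Mcm3 and E2f8.

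Among ER chaperones and genes of the unfolded protein response, the 18 marked CCAAT promoters divided into 10 without a summit and 8 bound (44.4%, interval 24.6 to 66.3%). The bound share was above the 12.7% of all marked CCAAT promoters, which lay below its interval. The lectin chaperones Calr (78.5) and Canx (77.9) had no summit in spite of strong H3K4me3 and 2 boxes each. Edem1 (62.7), the disulfide isomerase Pdia6 (55.3), the ubiquitin ligase Syvn1 (46.6), Hyou1 (39.1), the stress sensor kinase Eif2ak3 (33.7) and Manf (28.5) also had no summit, nor did Ddit3, for which the annotation holds 2 entries (14.1). Edem1 and both Ddit3 entries had 1 box each. Eif2ak3 and Manf had 3 boxes each. The bound genes included Hspa5, which encodes BiP (NF-Y-ChIP fold 12.4), and Pdia4 (11.6). Here the number of boxes did not part the groups, as at least 2 boxes were present in 7 of 10 without a summit and in 6 of 8 bound.

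In sterol and fatty acid synthesis, 10 promoters had no summit and 3 were bound (23.1%, interval 8.18 to 50.3%, which includes the 12.7% over all), the latter including Srebf2 and Hsd17b7. The promoters without a summit included Sc5d (65.7), Sqle (56.9), Fasn, the fatty acid synthase (56.4), Hmgcs1 (47.9), Mvd (36.0), Scd1 (28.6), Ebp (28.2), Fdps (26.2) and Lss (19.1). Fasn had 3 boxes, none of them in the extended consensus. The consensus was present in at least 1 box of 9 of the 10.

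No marked CCAAT promoter of the cortical progenitor list was bound (0 of 13, Wilson upper limit 22.8%), and none of the neuronal and synaptic list (0 of 8, upper limit 32.4%). Both limits lie above the 12.7% of all marked CCAAT promoters, so these counts do not set either list apart. In the progenitor list, 2 further marked promoters had a summit without a box in the window. The progenitor promoters without a summit included Vim (56.0), Pou3f3 (54.4), Sox1 (44.3), Emx1 (41.0), Btg2 (35.4) and Sox9 (34.7). Pax6, a regulator of apical progenitors, had 1 box at −58 bp in the extended consensus and an H3K4me3 fold of 7.81. Eomes, which encodes Tbr2 of intermediate progenitors, had boxes at −150 and −107 bp and a fold of 13.9. Sox2 and Tubb3 were marked, at 30.1 and 50.6, without a box in the window. The neuronal promoters without a summit were Elavl3 (64.0), Syt1 (52.5), Ank3 (32.3), Gad2 (28.9), Stmn2 (27.2), Neurod2 (16.4), Dcx (11.0) and Neurod6 (4.61), and Syt1 had 2 boxes in the consensus. Of the NF-Y subunit genes, none had a box in the window.

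Ribosomal protein, oxidative phosphorylation and proteasome genes held few bound CCAAT promoters, too few to place their bound share. Of the cytosolic ribosomal proteins, 14 of 16 CCAAT promoters had no summit, led by Rps27l (72.9), Rpl23a (71.95), Rps29 (62.9), Rplp2 (61.9), Rplp1 (60.3) and Rplp0 (60.2), and Rpl13a was among the bound ones. Of oxidative phosphorylation, 11 of 13 had none, namely Cox6a1, Ndufc2, Ndufb2, Ndufa6, Ndufb4, Atp5g1, Ndufs8, Cox6b1, Atp5g3, Atp5g2 and Cox6b2, with folds from 65.9 down to 7.57. Of proteasome subunits, 7 of 8 had none, namely Psmb7, Psmb2, Psma1, Psmc1, Psmd4, Psmc3 and Psmb3, with folds of 80.6 to 42.5. Their bound shares were 12.5% (2 of 16, interval 3.50 to 36.0%), 15.4% (2 of 13, 4.33 to 42.2%) and 12.5% (1 of 8, 2.24 to 47.1%), with wide intervals that include the 12.7% over all marked CCAAT promoters. For hnRNP, SR and snRNP proteins it was 5 of 10 (50%, interval 23.7 to 76.3%), above the 12.7%, with Hnrnpll (82.9), Snrpb (67.4), Hnrnpa0 (60.2), Snrpf (26.1) and Srsf3 (24.1) without a summit.

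Among histone genes, 23 of 30 marked CCAAT promoters had no summit, a bound share of 23.3% (interval 11.8 to 40.9%, which includes the 12.7% over all marked CCAAT promoters). H2afx (66.4), Hist3h2a (42.2), Hist1h1b (24.6), Hist3h2ba (23.8), Hist1h1e (22.6) and H2afj (22.4) had the strongest H3K4me3, and the median over the 23 was 15.5, against 37.9 over all 2526. At least 2 boxes were present in 15 of the 23 and in 5 of the 7 bound ones, against 26.2% of all 2526 without a summit. Replication-dependent histone genes are near-identical copies, so reads can be split among them, and their values are uncertain. Of the cytosolic and mitochondrial chaperones, Hspa2 (68.2), Stip1 (64.3), Hsph1 (50.01), Hspa8 (38.8) and Hspa1b (16.3) had no summit, and Hsf2 was bound. Of the aminoacyl-tRNA synthetases, Tars (46.6) had none and Iars was bound.

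The remaining families held few or weakly marked promoters, or were near the overall share. Of 90 marked CCAAT promoters of Zfp zinc finger genes, 79 had no summit (bound 12.2%, interval 6.96 to 20.6%), led by Zfp958, Zfp326 (73.9), Zfp386 (73.1), Zfp367 (68.9), Zfp763 (68.2) and Zfp322a (67.1). Of 51 of solute carriers, 44 had none (bound 13.7%, interval 6.81 to 25.7%), led by Slc30a5 (74.7), Slc30a6 (64.95), Slc25a17 (64.8), Slc41a1 (60.2), Slc45a4 (59.8) and Slc25a1 (59.3). Hoxd1 and Hoxd8 were marked at folds of 14.04 and 7.03, each with 1 box in the extended consensus and no summit. Of 23 listed genes of other tissues, 19 were unmarked here. The list includes many markers of other cells from the tissue check, and a known CCAAT box was not established for each gene. Pdgfrb (9.92), Cldn5 (9.38) and Col1a1 (4.43) had a box and no summit. These are among the mesenchymal and endothelial marker genes of the tissue check.

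**Figure D5:**
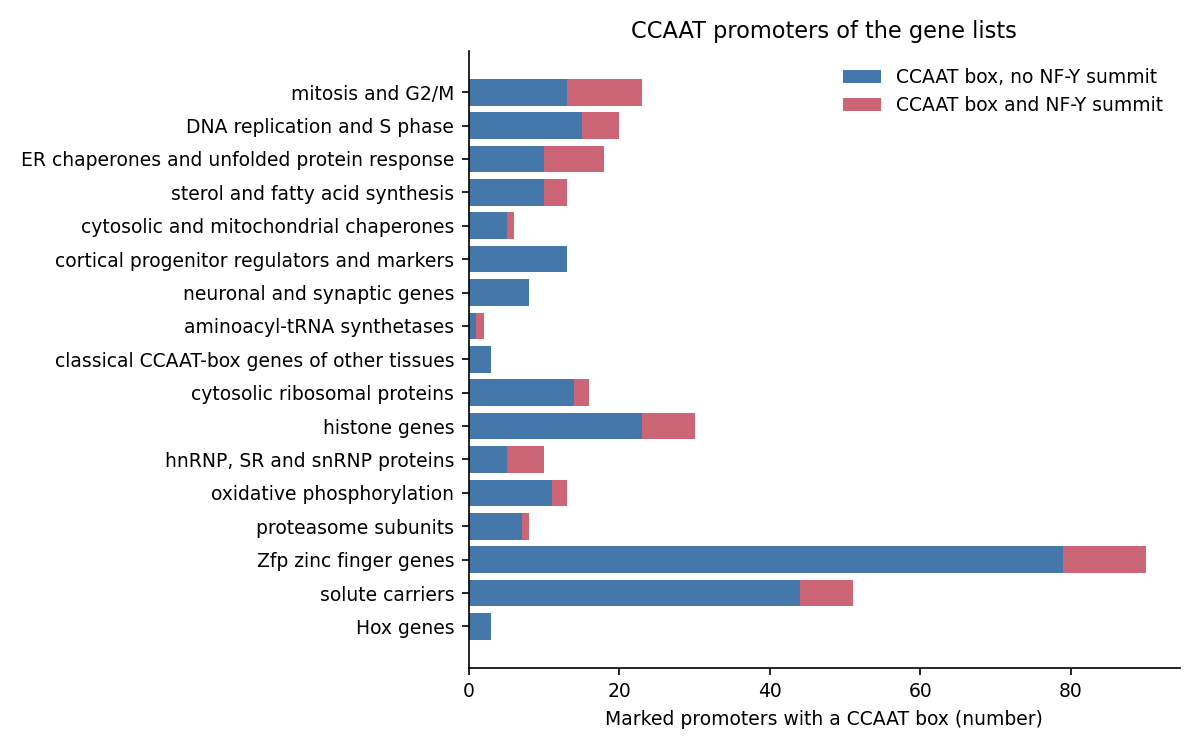
Number of marked CCAAT promoters in each gene list (horizontal axis), divided into those without an NF-Y-ChIP summit (blue) and with one (red); 17 lists with at least 1 such promoter are shown. The red part is 10 of 23 for mitosis and G2/M, 8 of 18 for ER chaperones and 0 of 13 for cortical progenitor genes.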

How the data were processed

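ChIP-seq of E13.5 mouse cortices covered input, NF-Y-ChIP and H3K4me3-ChIP, 1 library each. After trimming with Trimmomatic, the authors aligned reads to GRCm38 (mm10) by Bowtie2 2.2.8 and called peaks with MACS2 2.1.2, with a threshold of q < 0.05 for H3K4me3-ChIP and p < 0.001 for NF-Y-ChIP. The lists used here hold 18816 and 733 peaks, respectively. The former is not the number of H3K4me3 regions that the study gives, for a reason that its sources do not state, so the marked promoters are those of this list. The input served as the negative control of the ChIP, and the methods do not state whether MACS2 used it. Fold enrichment was deposited as a ratio of the summit signal over local background. The deposited −log10 values are those of p and q, and the deposited score is 10 times the −log10 of p or q rounded down, by which the lists were told apart. Peak depth is unknown, and the input has no peak list in the files used here.

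Gene 5′ ends came from GENCODE M21 and sequence from the GRCm38 reference, in which lower-case bases were taken as repeats. Where several H3K4me3-ChIP peaks lay within 1000 bp, the strongest by fold was used. Differences of shares have Newcombe intervals built from Wilson limits. Promoters were grouped by boxes, flanks, position, spacing, H3K4me3, composition and gene list. The genes named were those with the most boxes, the highest H3K4me3, the features of bound promoters, the distances nearest to the limit, the highest and lowest NF-Y-ChIP fold (5 of each), list members (all up to 12, otherwise the 6 with the highest H3K4me3) and 11 genes the study names. The members and lists were chosen with earlier results of these data known. Some genes that this rule covers are not reported here. Functions were tested on simulated data. The software was samtools 1.23.1, pysam 0.24.0, pandas 2.3.3 and matplotlib 3.10.9 under Python 3.11.15, with SciPy 1.17.1.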

Additional observations from a re-analysis of the deposited data

How the results depend on the processing

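Across 16 alternatives (14 listed at the start, 2 added after seeing the data: overlapping boxes counted as 1, and chromosome X left out), 7 results gave 112 values. Of these, 103 stayed inside the interval of the reported value (for the number of promoters, within 1.5 times), 9 moved beyond it and 0 changed sign. The number of promoters without a summit ran from 1715 to 3099. The bound share moved to 6.91% with only the NF-Y-ChIP peaks at or above the median fold, 14.5% with a window of 100 bp, 11.4% with 200 bp and 15.9% with the stronger 50% of H3K4me3-ChIP peaks. With the 100 bp window, the difference in promoters with at least 2 boxes was −27.3 percentage points and that in the median position of single boxes −4 bp. With the 200 bp window, the difference in the extended consensus was −38.9 percentage points and that in position −28 bp. The interval of the position difference included 0 with the 100 bp window (−12 to 4 bp), with the window to 50 bp downstream (−6 bp, −15 to 6 bp), with the stronger NF-Y-ChIP peaks (−12 bp, −27 to 2 bp) and without opposite-strand neighbours of any gene type (−9 bp, −20 to 3 bp). With the stronger 50% of H3K4me3-ChIP peaks, the difference in median H3K4me3 fold shrank to −2.05 from −8.48, with an interval that included 0. This alternative leaves out the weakly marked promoters by design. The difference in median GC content stayed between −2.67 and −1.67 percentage points, and its interval included 0 with the stronger NF-Y-ChIP peaks (−3 to 0.333). The cause of the shifts was not tested. With 1 library per antibody, no replicate could be left out. No paired analysis was possible because each antibody has 1 library. The lists hold no read counts, so a summit missed for lack of depth cannot be told apart from one that is absent.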

Other observations

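CCAAT promoters on chromosome X had few NF-Y-ChIP summits. This was noticed after the values were seen and was not tested. Of 124 marked CCAAT promoters on X, 121 had no summit and 3 were bound (2.42%, Wilson 95% interval 0.826 to 6.87%), against 365 of 2770 on the autosomes (13.2%, interval 11.97 to 14.5%). Among the autosomes the lowest bound share was 6.79% (11 of 162), on chromosome 9, and its interval of 3.83 to 11.7% overlapped that of X. The bound genes on X were Enox2, Pcdh19 and Rbbp7, with NF-Y-ChIP folds of 10.6, 6.31 and 6.50. At least 2 boxes were present in 28.2% of the CCAAT promoters on X and 30.9% on the autosomes, with overlapping intervals, and the extended consensus in 33.9% and 43.6%. Among promoters with at least 2 boxes, 2 of 35 on X were bound and 228 of 856 on the autosomes (26.6%). The median H3K4me3 fold of the CCAAT promoters was 24.3 (interval 21.5 to 27.5) on X and 39.9 (38.7 to 41.0) on the autosomes, and the part of this difference in the number of summits was not tested. The sex of the embryos is not given in the sources used here.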
